A study of Mus musculus with 9 samples.

Results

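The cytosolic ribosomal protein genes were followed through RNA sequencing of mouse liver. They were taken as the protein-coding rows whose gene symbol is Rpl or Rps followed by a number and at most 1 of the letters a, x, y or l, together with Rpsa and the stalk proteins Rplp0, Rplp1 and Rplp2. Of the 42188 genes in the count table, 73 met this rule, 43 of the large and 30 of the small ribosomal subunit. Rplp1, Rpl3, Rpl10, Rps27, Rps4l and Rpl40 had no row under these symbols and were not analysed here.

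The 9 livers gave 1 library each, in 3 groups of 3. Control mice received phosphate-buffered saline by tail vein. ConA mice received concanavalin A, a lectin from jack bean that causes T-cell-driven liver injury, by tail vein at 20 mg/kg. MSA_ConA mice received the same dose of concanavalin A after an intraperitoneal injection of MSA, which the series title gives as mesaconate, at 250 mg/kg, 6 h earlier. Livers were taken 12 h after concanavalin A, and the labels describe all mice as wild-type male C57BL/6 (C57BL/6J in the protocol), 8 weeks old and weighing 20 to 25 g. The comparisons ask how liver transcripts differed with concanavalin A and with MSA given before it.

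The libraries numbered 1 in the 3 groups stood apart from those numbered 2 and 3, and 6 libraries went against their labels. Xist, the transcript of the inactive X chromosome in females, lay between 0.0746 and 0.485 counts per 1000000 (CPM) for number 1 and between 667 and 1132 CPM for numbers 2 and 3, which are labelled male. Nnt, in which the C57BL/6J substrain carries a known deletion, lay between 29.8 and 34.7 CPM for number 1 and between 168 and 266 CPM otherwise. Group names below therefore mean the libraries labelled so. Library totals were 13294600 to 17276391 counts, and summed CPM of the 6 hepatocyte markers in the table was 98581 to 182034. Unless library totals are named, CPM values and fold changes were scaled by the trimmed mean of M-values (TMM), whose factors were 0.950, 0.674 and 0.571 in the libraries numbered 1 and 1.11 to 1.26 in the others.

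Ribosomal proteins are assembled with ribosomal RNA into the 2 subunits of the ribosome in near-equal amounts, and the large subunit forms peptide bonds while the small subunit decodes the mRNA. Their mRNAs typically begin with a C followed by a run of pyrimidines, the 5′ terminal oligopyrimidine (TOP) motif, through which mTOR signalling and the RNA-binding protein LARP1 set their translation and stability. In liver they serve a large output of secreted plasma proteins. Some ribosomal proteins also act outside the ribosome, such as the RPL5 and RPL11 complex with 5S RNA that binds MDM2 and releases p53.

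The sequence around the start of transcription is shown for 6 members, chosen among those with a run of at least 8 C or T bases there. Their log2 differences between library numbers, described below, run from 0.51 (Rpl14) to 3.31 (Rpl35a). Each line gives 15 bases before the RefSeq start and 15 bases from it, 5′ to 3′ on the gene's strand in GRCm38.p6. Capitals mark the longest uninterrupted run of C and T that overlaps the 5 bases on either side of the start.
Rpl35a: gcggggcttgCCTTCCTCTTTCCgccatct
Rpl38: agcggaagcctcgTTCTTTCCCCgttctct
Rpl28: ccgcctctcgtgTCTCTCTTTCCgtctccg
Rplp2: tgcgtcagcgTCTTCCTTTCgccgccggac
Rps6: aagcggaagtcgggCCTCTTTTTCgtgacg
Rpl14: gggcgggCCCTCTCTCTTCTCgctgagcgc

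These windows lie at chr16:33056467-33056496 (Rpl35a), chr11:114668565-114668594 (Rpl38), chr7:4792950-4792979 (Rpl28), chr7:141447636-141447665 (Rplp2) and chr9:120571502-120571531 (Rpl14), all on the plus strand, and at chr4:86857353-86857382 on the minus strand (Rps6). A run of at least 8 C or T bases overlapping the 5 bases on either side of a RefSeq start was found for 22 of the 56 members with an entry in the table, or 39.3%. Among 26969 other genes it was found for 3046, or 11.3%. On the other strand, where such a run reads as A and G, it was found for 3 of the 56 members (5.36%) and 12.6% of other genes. A match is a description of the letters and not of a working motif, and the RefSeq start need not be the start used in these livers.

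At the level of length-scaled expression, deposited as counts divided by gene length and library size (FPKM), the median member stood at 68.0 FPKM over the 9 libraries. Rps26 (median 367 FPKM), Rpl4 (353 FPKM) and Rps12 (345 FPKM) were the 3 highest; they encode proteins of the small, large and small subunit. The 3 lowest were the tissue-restricted paralogs Rpl10l and Rpl39l, both at a median of 0, and Rpl3l at 0.245 FPKM. Rpl10l, a retrogene expressed in male germ cells, had no count in any library, where 3 counts correspond to 0.155 to 0.396 CPM. Rpl39l, a second testis-enriched paralog, had 2 counts in Control 1, 1 count in Control 3 and none in the other libraries. Rpl24, a large-subunit protein of every ribosome, was at 0.237 to 0.934 FPKM, and Rpl18 and Rps27a, also universal, had medians of 3.30 and 3.46 FPKM. Many members have near-identical processed pseudogenes, and how reads shared with such copies were counted is not given in the sources used here, so low levels of universal members are uncertain. The 252 pseudogene rows that shared a protein family identifier with a member, or were named as its pseudogene, held 0.0707% to 0.111% of a library's counts. Of the tested members, 48 had such an identifier. For Rpl19 the pseudogene rows held 287 to 609 counts beside 47 to 100 counts of the gene. Its mean level in number 1 over that in numbers 2 and 3 was 1.62 alone and 2.42 with these rows added. The same ratios were 2.58 and 3.21 for Rps27a, 2.52 and 2.31 for Rps15a, and 1.49 and 1.61 for Rps4x.

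Summed over the 73 genes, ribosomal protein counts made up 1.68%, 1.30% and 1.02% of the library in Control 1, 2 and 3. They made up 1.69%, 1.00% and 0.835% in ConA 1, 2 and 3, and 1.56%, 0.843% and 0.965% in MSA_ConA 1, 2 and 3. The 3 groups overlapped, with means of 1.33% ± 0.333 in Control, 1.17% ± 0.450 in ConA and 1.12% ± 0.384 in MSA_ConA (SD, n = 3 each). Each group's library numbered 1 held its largest share, at 1.64% ± 0.0708 (SD, n = 3) against 0.995% ± 0.171 (SD, n = 6) in numbers 2 and 3. On library totals the share in libraries numbered 1 was thus nearly level across the groups. With TMM scaling the summed level of the members was 17704, 25084 and 27358 CPM in Control 1, ConA 1 and MSA_ConA 1, and 7129 to 11063 CPM in the other 6 libraries. The 95% exact binomial intervals of these shares were narrow (1.67% to 1.69% in Control 1) but cover counting error only. In bulk liver, more ribosomal protein mRNA per cell and more cells of a type rich in it cannot be told apart. Counts of the large-subunit genes were 1.27 to 1.49 times those of the small-subunit genes in all 9 libraries.

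**Figure D1:**
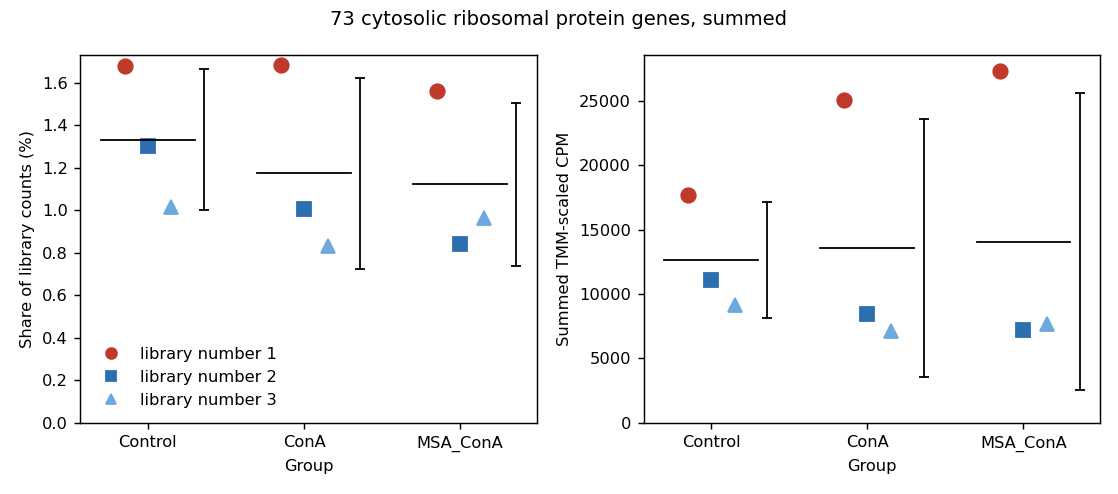
Counts of the 73 ribosomal protein genes as a percentage of each library (left) and as summed TMM-scaled CPM (right), by group; symbols mark the library number, horizontal lines the group means and bars the SD (n = 3). The library numbered 1 is highest in each group on both scales, and the rise from 17704 CPM in Control 1 to 27358 CPM in MSA_ConA 1 on the right is absent from the shares on the left (1.68% and 1.56%).

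Of the 73 members, 70 passed the filter on low counts and were tested with edgeR's quasi-likelihood test among 14603 genes. Rpl24, Rpl39l and Rpl10l did not pass.

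With all 9 libraries, none of the 70 tested members was called between ConA and Control, and 0% of all genes were called. DESeq2, limma-voom and limma on FPKM called no member either. The smallest adjusted p among members was 0.9997, and no member had an unadjusted p under 0.05. Members were higher in ConA for 40 and lower for 30, with a median log2 fold change of 0.03 beside 0.07 over all genes. On library totals the members' median was -0.20 and with a replicate block for library number it was -0.15, so its sign depended on the scaling and the model. Leaving out ConA 1 moved it to -0.76, and leaving out Control 1 moved it to 0.41.

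The largest log2 fold change between ConA and Control was 2.06 for Rpl3l, described below, whose highest ConA library was ConA 2. For several of the other members with large differences between ConA and Control, the library numbered 1 lay far from the rest of its group. Rps3, a small-subunit protein that also takes part in DNA repair, stood at 221, 241 and 232 CPM in Control 1 to 3, at 670, 215 and 179 CPM in ConA and at 490, 181 and 179 CPM in MSA_ConA. ConA 1 lay above every Control library while ConA 2 and 3 lay below them, and the log2 fold change was 0.62 ± 0.60 (SE). Rplp0, the base of the stalk that recruits elongation factors, was at 499, 269 and 261 CPM in Control, 1170, 251 and 224 CPM in ConA, and 940, 242 and 256 CPM in MSA_ConA. The library numbered 1 was again the highest of each group, and the log2 difference between ConA and Control was 0.68 ± 0.78 (SE). On the negative side were Rps15 (-0.87), Rps27l (-0.75), Rpl35 (-0.60) and Rps28 (-0.52). Rps15, near the decoding site, was at 14.2, 9.14 and 2.91 CPM in Control and 10.2, 2.27 and 1.99 CPM in ConA, so that the groups overlapped.

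Between MSA_ConA and ConA none of the 70 tested members was called by this test or by the other 3, with 0% of all genes called and a smallest adjusted p of 0.9999. The members' median log2 difference was 0.12 (all genes 0.02), with 45 members higher and 25 lower in MSA_ConA and none at an unadjusted p under 0.05. The largest positive values after Rpl3l belonged to Rps28 (0.98), Rps27l (0.76) and Rpl18 (0.72), and the most negative to Rps9 (-0.46), Rps3 (-0.32), Rpl23a (-0.30) and Rpl13a (-0.24). Rpl13a, a large-subunit protein that also silences inflammatory mRNAs in the GAIT complex, was at 473, 61.4 and 43.0 CPM in ConA and 412, 36.3 and 42.1 CPM in MSA_ConA. The library numbered 1 stood far above the other 2 in each group, and the groups overlapped. Leaving out ConA 1 moved the members' median to 0.89, and leaving out MSA_ConA 1 moved it to -0.78.

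Against Control, MSA_ConA livers showed no called member either (0% of all genes), with a smallest adjusted p of 0.937, 54 members higher, 16 lower and a median of 0.15 beside 0.07 over all genes. On library totals that median was -0.24. Rpl3l alone had an unadjusted p under 0.05, and DESeq2 called it at an adjusted p of 0.0447. Rps27a, which encodes ubiquitin fused to a small-subunit protein, was at 9.25, 7.94 and 5.10 CPM in Control and 22.8, 4.27 and 14.1 CPM in MSA_ConA, a log2 difference of 0.88 ± 0.74 (SE). MSA_ConA 1 and 3 lay above the Control libraries and MSA_ConA 2 below them. Other large values were 0.70 for Rps14, against -0.64 for Rpl23a, -0.45 for Rps15 and -0.34 for both Rpl28 and Rpl32.

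Rpl3l, on chromosome 17 (24793753 to 24803033 in the C57BL/6NJ coordinates of the files), encodes a striated-muscle paralog of RPL3. It was at 0.224, 0.261 and 0.312 CPM in Control, 0.388, 2.53 and 0.455 CPM in ConA, and 0.396, 1.55 and 18.4 CPM in MSA_ConA. MSA_ConA 3 was far above every other library, with 356 counts against 3 to 49. Its log2 difference between MSA_ConA and Control was 4.63 ± 1.44 (SE), and between MSA_ConA and ConA it was 2.57, which became -0.15 without MSA_ConA 3. Summed CPM of the 14 markers of skeletal muscle was 1.57, 2.40 and 0.937 in Control, 3.20, 385 and 67.1 CPM in ConA, and 121, 361 and 4889 CPM in MSA_ConA, where 119 of the 121 CPM of MSA_ConA 1 were Atp2a1. MSA_ConA 3, ConA 2 and MSA_ConA 2 were, in this order, the 3 highest libraries for Rpl3l and for the muscle markers. Myh2, Myl1 and Tnni2 were at 0 in all 3 Control libraries, and 13 of the 14 markers were tested, all 13 of them higher in MSA_ConA than in Control and none called. Their part in the Rpl3l result was not tested.

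Divided by the number in their titles, the libraries differed in most members. In a fit with a mean per group and a term for number 1, 62 of the 70 tested members were higher in the 3 libraries numbered 1 than in the 6 others and none was lower, while 19.1% of all genes were called higher and 19.2% lower. The members' median log2 difference was 1.52, against -0.10 over all genes. All 3 libraries numbered 1 lay above all 6 others for 56 members (14.8% of all genes), and for no member did they lie below. Most members of both subunits were higher, with 34 of 40 large-subunit members higher (median 1.55) and 28 of 30 small-subunit members (median 1.39). Since the numbers 1 and 2 or 3 also divide the libraries by Xist, Nnt and Mup21, number, sex and strain cannot be told apart here.

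The size of this difference depended on the scaling. On library totals the median over all genes moved to -0.81, the members' median was 0.75 and 38 members were called, all higher (7.42% of all genes were called higher and 37.3% lower). Relative to the median of all genes the members stood 1.62 higher with TMM scaling and 1.56 higher on library totals. Within a group the library numbered 1 is a single library set against 2 others, and a fit with a mean per group and number class takes its spread from numbers 2 and 3. In that fit 36 members were higher in number 1 in Control (12.1% of all genes called higher and 15.7% lower), 65 in ConA (26.6% and 30.2%) and 65 in MSA_ConA (26.5% and 31.9%), with none lower and medians of 0.76, 1.82 and 1.83. On library totals these counts were 22, 42 and 37, beside 7.09%, 13.1% and 10.1% of all genes called higher and 24.8%, 50.9% and 59.2% called lower, with 2 further members lower in MSA_ConA and medians of 0.49, 1.01 and 0.73.

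Rpl21, a large-subunit protein whose gene lies on chromosome 5 (158014373 to 158018515), differed most. It was at 210, 319 and 279 CPM in Control 1, ConA 1 and MSA_ConA 1, and at 41.3 and 18.8 CPM in the other Control libraries, 21.6 and 18.6 CPM in ConA, and 23.9 and 23.7 CPM in MSA_ConA. The 2 sets of libraries did not overlap, and the log2 difference was 3.47 ± 0.29 (SE, adjusted p = 0.000328 by edgeR). Rpl35a, a gene mutated in some Diamond-Blackfan anemia and one of those with a pyrimidine run shown above, was at 366, 332 and 476 CPM in number 1 against 27.5 to 71.1 CPM elsewhere. Its log2 difference was 3.31 ± 0.27 (SE, adjusted p = 0.000266). Rpl13a (2.75 ± 0.36), Rpl37 (2.72 ± 0.31) and Rpl38 (2.68 ± 0.42) followed. Rpl38, which in mouse embryos is needed for translation of Hox mRNAs, was at 162, 172 and 298 CPM in number 1 against 19.2 to 72.7 CPM elsewhere, with Control 2 the highest of these.

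Rpl5 and Rpl11, the partners in the MDM2-binding complex, had log2 differences of 0.70 ± 0.18 (SE, adjusted p = 0.0182 by edgeR) and 1.96 ± 0.29 (SE, adjusted p = 0.00238). The Rpl5 call was lost with no filter (adjusted p = 0.0629) and in 5 of the 9 fits with 1 library left out, those without ConA 1, 2 or 3 or MSA_ConA 1 or 2 (adjusted p of 0.0550 to 0.0638). Rpl5 was at 194, 279 and 307 CPM in number 1 against 149 to 166 CPM elsewhere, and Rpl11 at 475, 457 and 594 against 85.2 to 240 CPM. Rpl23 (2.03) and Rpl26 (1.50), which also bear on the p53 pathway, were higher, as were Rps6, the substrate of S6 kinase (1.13), Rps19, the gene most often mutated in Diamond-Blackfan anemia (1.82), and Rpl22, needed for T-cell development (0.79). Rpsa, which doubles as a laminin receptor, and Rplp0 both differed by 1.75, and Rplp2, the phosphoprotein of the stalk, by 1.98. Rpl32 (1.23) and Rps18 (1.98), which serve as reference genes in many PCR assays, were not level across these libraries. Rpl39, which lines the exit tunnel, differed by 0.76. On library totals Rps6, Rpl22, Rpl32 and Rpl39 were positive but not called.

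The test did not call 8 members, 7 of which had a positive difference. Rps4x, the X-linked small-subunit gene, was at 267, 572 and 394 CPM in number 1 against 263 to 291 CPM elsewhere, a log2 difference of 0.53 ± 0.22 (SE, adjusted p = 0.0902), with Control 1 inside the range of numbers 2 and 3. Rpl23a, near the exit tunnel, differed by 0.47 ± 0.20 (adjusted p = 0.0876), and Rpl4, Rpl9, Rpl19 and Rps28 by 0.61, 0.82, 0.67 and 0.93. DESeq2 called Rps4x and Rpl23a (adjusted p of 0.0420 and 0.0405), as did edgeR without Control 1 (0.0101 and 0.0367). With relative log expression scaling edgeR called Rpl4 and Rpl9 (adjusted p of 0.0472 and 0.0450) but not Rps4x, Rpl23a, Rpl19 or Rps28. Rpl3l was the 1 tested member with a negative difference, at -2.40 ± 1.22 (SE, adjusted p = 0.150). Rpl14, the smallest difference that was called, was at 234, 216 and 272 CPM in number 1 against 149 to 188 CPM elsewhere, with a log2 difference of 0.51 ± 0.16 (SE, adjusted p = 0.0356). Its call was lost with no filter (adjusted p = 0.187) and in 8 of the 9 fits with 1 library left out, all but that without Control 1 (adjusted p of 0.0615 to 0.107). On library totals Rpl14 (-0.21), Rps4x (-0.20), Rpl23a (-0.26), Rpl5 (-0.04), Rpl4 (-0.14), Rpl19 (-0.06) and Rpl7 (-0.02) took the opposite sign.

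**Figure D2:**
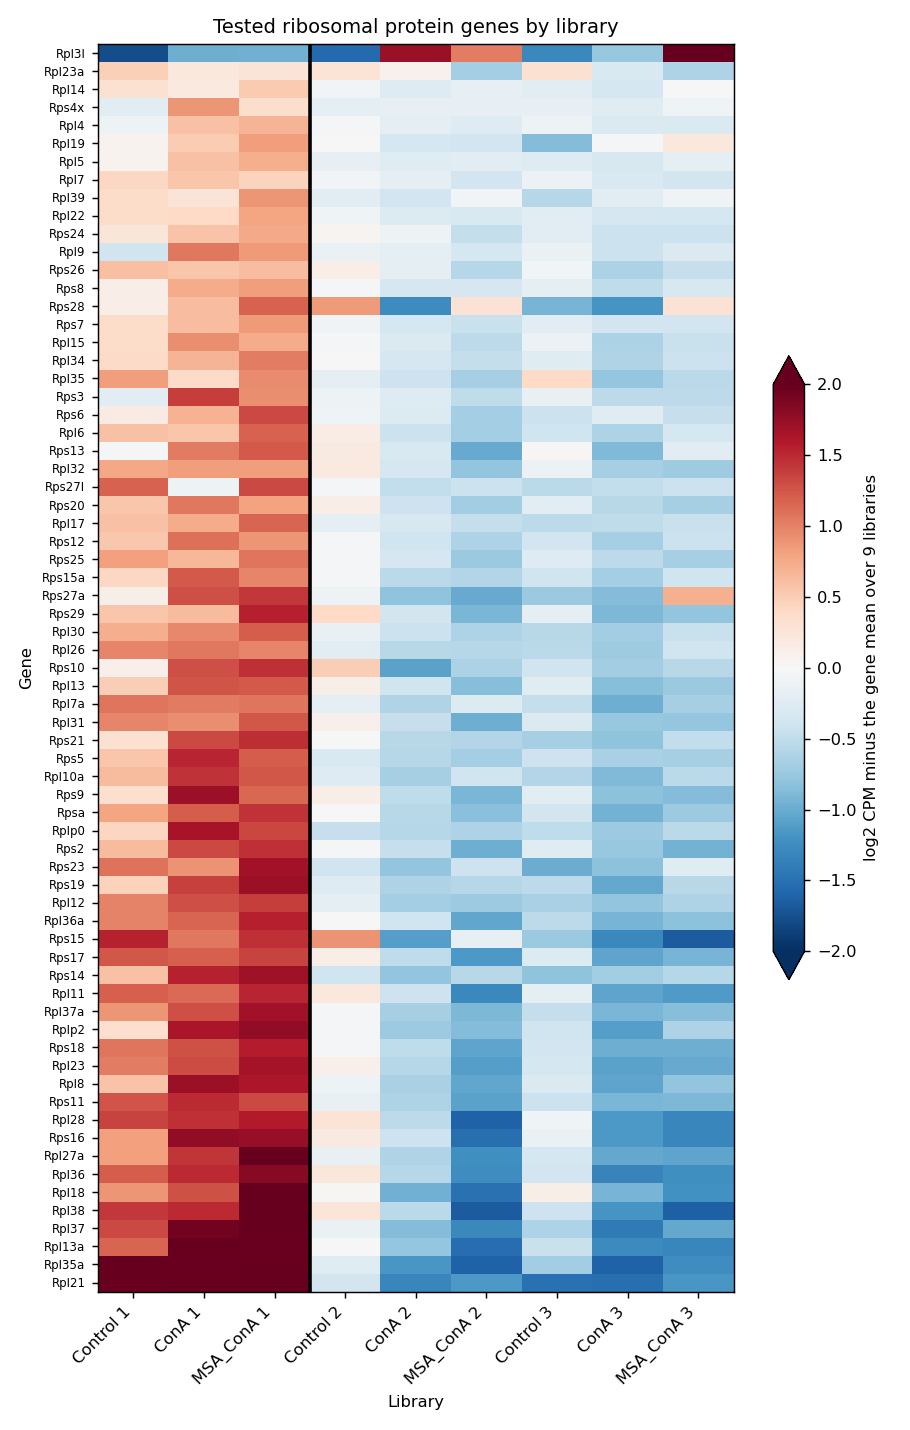
TMM-scaled log2 CPM of 69 of the 70 tested members minus each gene's mean over the 9 libraries (colour, limited to -2 to 2), with libraries in columns ordered by number and members in rows ordered by their number 1 difference. The 3 columns left of the line, the libraries numbered 1, are above the row mean for nearly all members, and Rpl3l in the top row is highest in MSA_ConA 3.

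**Figure D3:**
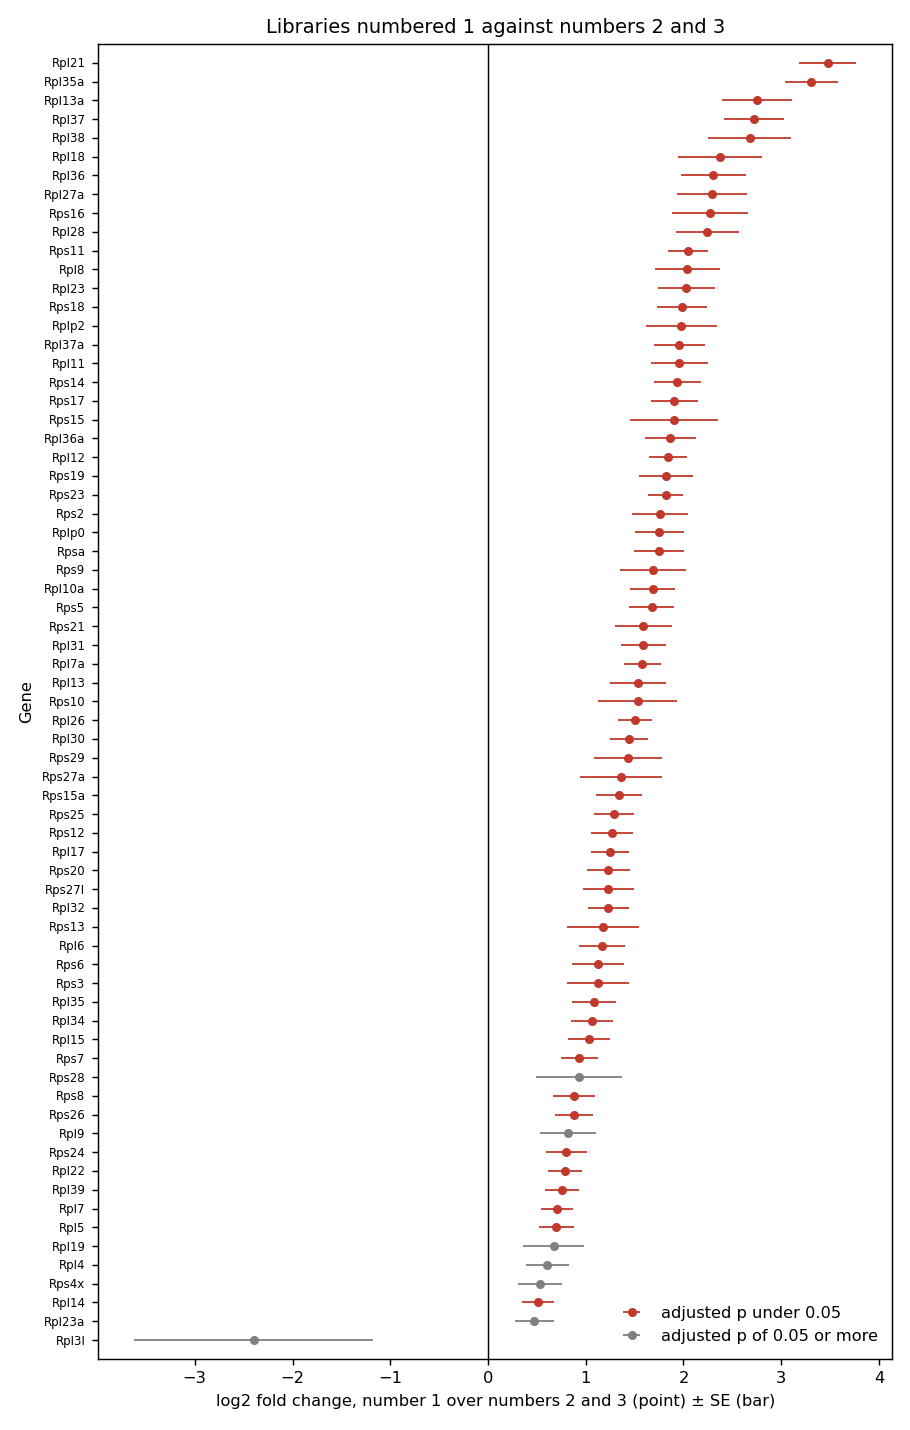
Log2 difference of 69 of the 70 tested members between the libraries numbered 1 (n = 3) and those numbered 2 and 3 (n = 6), TMM-scaled, with its SE as a bar; red marks the 62 members called at an adjusted p under 0.05. Values run from -2.40 for Rpl3l to 3.47 for Rpl21, and with library totals the values near 0.5 (Rpl14, Rps4x and Rpl23a) turn negative.

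The members did not move by one common factor. When counts were scaled by the sum of the ribosomal protein genes, a choice made after the values were seen, 25 members still differed between number 1 and the others. On this scale 3.29% of all genes were called higher and 64.4% lower, since it sets the members' sum level. Of the 25, 11 took a larger part of the ribosomal protein counts in number 1, led by Rpl21 (2.01), Rpl35a (1.82), Rpl13a and Rpl37 (both 1.22), and Rpl38 (1.16). The other 14 took a smaller part, among them Rpl3l (-3.77), Rpl23a (-0.99), Rps4x (-0.95), Rpl14 (-0.94), Rpl4 (-0.88), Rpl5 (-0.77) and Rpl39 (-0.69).

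Coding length, from GENCODE, ran against the number 1 difference among all genes. Among other genes the median log2 difference was 0.72 for 208 genes of at most 300 coding bases, 0.43 for 491 genes of over 300 to 450 bases and 0.26 for 678 genes of over 450 to 600 bases, and it was -0.21 for 5516 genes of over 1500 bases. In the same 3 classes up to 600 bases the medians of the members were 1.59 (7 members), 1.50 (25 members) and 1.53 (17 members), and in the class of over 600 to 900 bases the 17 members stood at 1.17 beside 0.09 for 1645 other genes. The members' median lay above that of other genes in each of these 4 classes, which held 7 to 25 members each. Across the 70 members Spearman's rho of the difference with coding length was -0.23, and across 11935 other genes it was -0.14; genes share libraries and are not independent replicates. The part of transcript length in the difference between library numbers was not tested. By the pyrimidine run at the start, the members' median difference was 1.43 for the 22 with a run and 1.59 for the 31 tested members without one.

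**Figure D4:**
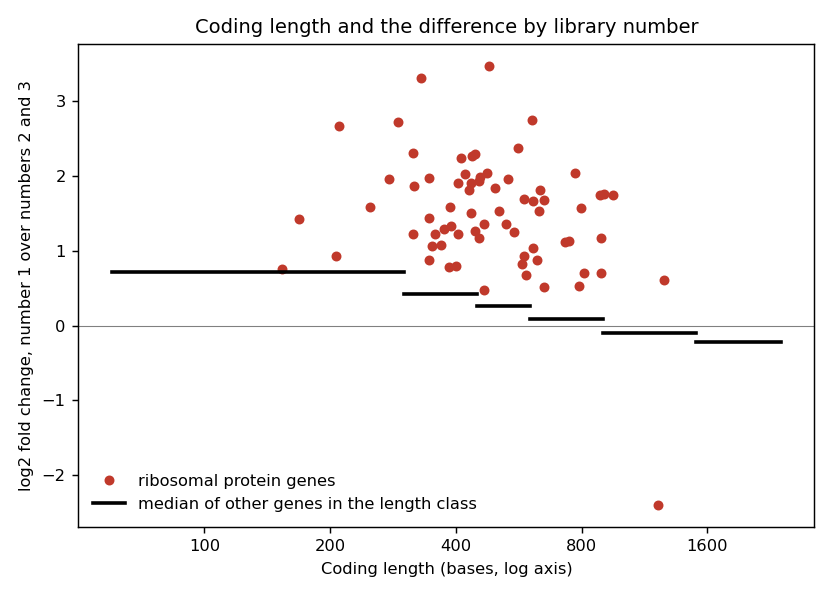
Log2 difference between libraries numbered 1 and numbers 2 and 3 (TMM-scaled) against coding length on a log axis for the 70 tested members (points), with the median of other genes in each of 6 length classes as a black line. The lines fall from 0.72 for the shortest class to -0.21 for the longest, and the members lie mostly above them.

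The ConA against Control difference was also compared between library numbers, and many genes outside the members differed too. On library totals, and with Control 2 or ConA 3 left out, a smaller part of the members than of all genes was called. A direct test, in which the lone library numbered 1 of a group is assumed to vary like those numbered 2 and 3, called 27 members for a difference of the ConA against Control effect. For 26 the effect was higher in number 1 (15.7% of all genes) and for 1, Rps27l, it was lower (15.4%). Rps10, of the small-subunit head, had the largest difference, at 2.16 ± 0.50 (SE, adjusted p = 0.0170). Number 1 had 134 CPM in Control and 304 CPM in ConA, while numbers 2 and 3 had 176 and 94.6 CPM in Control, then 59.2 and 77.4 CPM in ConA. ConA was thus higher than Control for number 1 and lower for the other two. Rplp2 (2.00 ± 0.35), Rps9 (1.99 ± 0.32) and Rps3 (1.86 ± 0.27, adjusted p = 0.00319) followed, then Rpl13a (1.82) and Rpl8 (1.79). For Rps3 the CPM of ConA over Control was 3.03 in number 1 (95% interval 2.91 to 3.17, counting error only) and 0.895 and 0.768 in numbers 2 and 3.

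On library totals 8 of the 70 members were called for this difference, 7 higher and 1 lower, while 9.07% of all genes were called higher and 28.4% lower. With TMM scaling 13 were called without Control 2 (23.9% of all genes) and 11 without ConA 3 (20.1%). The direction within number 1 itself turned with the scaling. ConA 1 over Control 1 had a median ratio of 1.33 over the members with TMM scaling (55 above 1, 15 below) and 0.940 on library totals (31 above, 39 below). In numbers 2 and 3 the median ratio was below 1 on both scales, at 0.738 and 0.786 with TMM scaling and 0.747 and 0.827 on library totals. Summed CPM of the 5 neutrophil markers in the table was 9.02, 6.74 and 3.38 in Control, 407, 5.52 and 2.67 in ConA and 61.2, 4.21 and 4.28 in MSA_ConA, led by S100a8 and S100a9. No marker of the list was at 0 in all 3 libraries of any group. The sum of the neutrophil markers was thus high in the libraries numbered 1 of both treated groups. Csf3r, of the same list, was at 6.41, 10.1 and 5.80 CPM in Control 1, ConA 1 and MSA_ConA 1. The part of these markers in the difference was not tested.

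**Figure D5:**
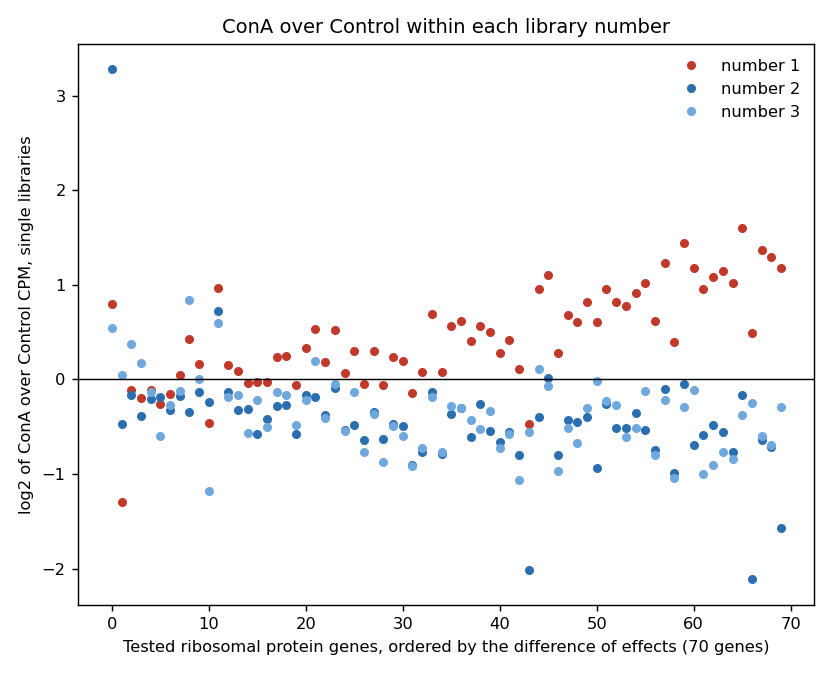
Log2 ratio of TMM-scaled CPM in ConA over Control for the 70 tested members, each from single libraries of the same number and ordered by the difference of effects. For most members the points of number 1 (red) lie above 0 and those of numbers 2 and 3 (blue) below, with median ratios of 1.33, 0.738 and 0.786; on library totals the median of number 1 is 0.940.

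Among the libraries numbered 2 and 3 alone, 67 of 71 tested members were lower in ConA than in Control, with a median log2 difference of -0.44 beside 0.01 over all genes. All ConA libraries lay below all Control libraries for 54 of 70 members, against 23.8% of all genes. None passed edgeR's test (0 of 14851 genes; smallest adjusted p among members 0.414), while 37, all lower, had an unadjusted p under 0.05 (6.92% of all genes lower, 11.6% in either direction). MSA_ConA against Control was alike in these libraries, with 59 of 71 members lower, a median of -0.39, 47 of 70 without overlap (27.6% of all genes) and a smallest adjusted p of 0.0823, with 34 members at an unadjusted p under 0.05, 33 of them lower (12.6% of all genes lower, 24.1% in either direction). These 2 comparisons share their Control libraries. Between MSA_ConA and ConA the median was -0.01, with no member called and 7 at an unadjusted p under 0.05 (5.16% of all genes). Summed CPM of the 14 skeletal muscle markers in these libraries was 2.40 and 0.937 in Control, 385 and 67.1 in ConA and 361 and 4889 in MSA_ConA, above Control in all 4 treated libraries, and their part in these differences was not tested.

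Rps27l, a p53-induced paralog of Rps27 on chromosome 9 (68650486 to 68656932), was the member whose ConA effect was called lower in number 1. It stood at 309, 134 and 93.7 CPM in Control, 126, 96.6 and 96.6 CPM in ConA, and 338, 101 and 101 CPM in MSA_ConA. Control 1 and MSA_ConA 1 were high and ConA 1 was within the range of the libraries numbered 2 and 3. Its ConA effect differed by -1.06 ± 0.33 (SE, adjusted p = 0.0443 by edgeR) between number 1 and the others, and its MSA_ConA against ConA effect by 1.36 ± 0.33 (SE, adjusted p = 0.0297). Cdkn1a, a p53 target, did not follow it, at 9.02, 747 and 1239 CPM in Control 1, ConA 1 and MSA_ConA 1 and 0.455 to 2.63 CPM in the others. Mdm2, the p53 ubiquitin ligase, was at 38.6, 169 and 50.8 CPM for number 1 in the same order and between 31.2 and 42.3 CPM otherwise. Other genes of p53 surveillance went the other way. Ccng1 was at 18.5, 15.4 and 17.4 CPM for number 1 and 34.2 to 121 CPM otherwise. Mdm4 was at 21.6, 7.28 and 5.80 CPM for number 1 and 24.4 to 34.6 CPM otherwise. Of the 7 genes, 2 were called higher in number 1 and 2 lower (19.1% and 19.2% of all genes). Their relation to Rps27l was not tested.

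The MSA_ConA against ConA effect differed between number 1 and the others for 2 members, both higher in number 1 (8.59% of all genes were called higher and 10.1% lower). Beside Rps27l this was Rpl18, a large-subunit protein, which went from 40.2 CPM in ConA 1 to 81.7 CPM in MSA_ConA 1 but from 8.46 and 8.70 CPM to 5.87 and 7.17 CPM in numbers 2 and 3. The difference of effects was 1.42 ± 0.26 (SE, adjusted p = 0.0132). Without ConA 2, or without MSA_ConA 3, 1 member was called (10.8% and 14% of all genes). Neither member was called for this difference at an adjusted p under 0.01, and Rps27l was not called on library totals. Other members were called only under alternatives. Rpl38 was called with DESeq2 (log2 difference 1.64), with no filter (1.64) and with relative log expression scaling (1.64). Rps29 was called with DESeq2 (1.19) and with no filter (1.18). The ConA effect of Rps27l was not called with relative log expression scaling, limma-voom or FPKM (adjusted p of 0.0509, 0.0510 and 0.0554).

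Genes that build or work with the ribosome were read in the same fits, where 19.1% of all genes were called higher and 19.2% lower in number 1. Of 5 ribosomal proteins outside the symbol rule, such as Rack1 and Rps3a1, 4 were higher in number 1, as were 8 of 15 translation factors and other TOP genes (median 0.68) and 10 of 30 ribosome biogenesis genes (median 0.73), with none lower. Of 74 mitochondrial ribosomal protein genes, which serve a separate ribosome, 32 were higher and 5 lower (median 0.54). For the ConA effect, 19 of 30 biogenesis genes and 7 of 15 TOP genes were higher in number 1 and none lower, whereas 3 of 74 mitochondrial ribosomal protein genes were higher and 16 lower (15.7% of all genes higher, 15.4% lower). For the MSA_ConA against ConA effect 3 biogenesis genes were higher and 8 lower in number 1, and 13 mitochondrial ribosomal protein genes were higher and 3 lower (8.59% and 10.1% of all genes). Myc, which drives ribosome production, was at 5.74, 551 and 25.1 CPM in Control 1, ConA 1 and MSA_ConA 1 and at 1.59 to 4.34 CPM in the others. Of the 15 genes in growth control of translation, 3 were higher and 1 lower in number 1, and of the 7 genes in p53 surveillance 2 were higher and 2 lower.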

How the data were processed

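Total RNA of 9 mouse livers was sequenced with an Illumina kit, per the labels' protocols. The submitters' processing notes list Bowtie 0.12.2, mm8 and mm10, with no role for either build; gene identifiers and coordinates are those of the C57BL/6NJ assembly, per the file headers. The authors deposited raw counts per gene, and FPKM values that equal the count divided by gene length and by 1 scaled total per library. For the counting tool, strand and multiply mapped reads, settings were not given in the sources used.

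Counts were fitted with edgeR 4.0.16 (R 4.3.3; quasi-likelihood test, TMM scaling, filterByExpr by group) over all 9 libraries and 14603 genes, with Benjamini-Hochberg adjustment over all of them and a threshold of 0.05. Models had a mean per group, a mean per group plus a term for number 1, or a mean per group and number class. The SE is the absolute log2 fold change divided by the square root of F. Nothing says that the libraries of a group came from more than separate liver samples, so p-values measure the spread between them. Alternatives were DESeq2 1.42.0, limma 3.58.1 (voom, and log2(FPKM + 1)), other scalings and filters, the replicate block, fewer libraries and each library left out. Scripts were tested on simulated data. Depth was 13294600 to 17276391 counts.

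Members and gene lists were chosen with earlier results of these data known, and so was the division by library number. Named members are the 4 largest positive and negative differences of each comparison, the 3 highest and lowest by median FPKM, members with a role of their own, and those called where at most 5 were. Residuals of same-numbered libraries correlated at 0.337 to 0.720 across genes, and libraries numbered 2 and 3 also correlated with each other. The main fit of the group comparisons had no term for the number and was not paired. Only the replicate block, an alternative, treated the numbers as pairing. Promoter sequences are RefSeq's (GRCm38.p6), matched by symbol for 56 of 73 members; coding lengths are from GENCODE vM21, matched by symbol for 70 of 70 tested members. Among these, 1 tested member is counted but not reported by name here.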

Additional observations from a re-analysis of the deposited data

Results flagged for a closer look

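The effect of concanavalin A differed between libraries numbered 1 and those numbered 2 and 3 for 27 ribosomal protein genes by the test of the difference itself, which called 31.1% of all genes. On library totals it called 8 of the 70 members, with 9.07% of all genes higher and 28.4% lower. The largest log2 differences were 2.16 for Rps10, 2.00 for Rplp2, 1.99 for Rps9 and 1.86 for Rps3, and Rps27l was the only one below 0, at -1.06. The lone library numbered 1 of each group is assumed here to vary like those numbered 2 and 3. Within number 1 the members' median ratio of ConA over Control was 1.33 with TMM scaling and 0.940 on library totals. For MSA_ConA against ConA 2 of the 70 members were called, Rpl18 (1.42) and Rps27l (1.36), a smaller part than the 18.7% of all genes called.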

How the results depend on the processing

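In the 3 group comparisons the number of members called stayed at 0 under every alternative run, except for 1 member in MSA_ConA against Control with DESeq2; the replicate block for library number changed no call, with members' medians of -0.15, 0.06 and -0.10 in the order ConA against Control, MSA_ConA against ConA and MSA_ConA against Control. Leaving out each library moved these medians between -0.76 and 0.41, -0.78 and 0.89, and -0.71 and 0.48. For number 1 against numbers 2 and 3, leaving out each library gave 52 to 67 members and medians of 1.30 to 1.71. Library totals gave 38 members and a median of 0.75; within groups there were 36 members in Control (median 0.76), and medians of 1.82 in ConA and 1.83 in MSA_ConA; within groups on library totals there were 22 members in Control (0.49) and 39 in MSA_ConA (0.73), with a median of 1.01 in ConA. The within-group settings and the scaling by the members' own sum were added after the data were seen. Scaling by the members' own sum gave 25 members and a median of 0.0026 by construction, and 3 and 0 members for the differences of the ConA and MSA effects (36.9% and 10.8% of all genes). The ConA difference was called for 8 members on library totals, 7 at an adjusted p under 0.01 (12.8% of all genes), and 11 to 27 with each library numbered 2 or 3 left out. The MSA difference was called for 6 members with DESeq2 (18.5% of all genes), 5 with no filter (12.6%), 0 at an adjusted p under 0.01 (5.36%), and 1 to 3 with a library left out. Shares without the 20 genes with most counts were 1.76% in Control and 1.51% in MSA_ConA, and shares of summed FPKM were 2.18%, 1.94% and 1.84% in Control, ConA and MSA_ConA.

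Of 964 alternative values for single members named here, 899 kept their direction and side of the threshold, 11 were called only under the alternative, 30 lost their call and 24 changed sign. The calls lost most often were those of Rpl14, Rpl5 and Rps27a for number 1. Outside these 964 values, Rpl4 (-0.14), Rpl19 (-0.061) and Rpl7 (-0.020) also changed sign for number 1 on library totals. Within them, the changes of sign on library totals were Rpl23a (-0.26), Rpl14 (-0.21), Rps4x (-0.20) and Rpl5 (-0.035) for number 1. With numbers 2 and 3 only they were Rps3 (-0.28) and Rplp0 (-0.18) for ConA against Control and Rpl18 (-0.38) for MSA_ConA against ConA, where limma-voom gave -0.11. With 1 library left out, ConA against Control ran from -0.23 to 0.92 for Rps3 and from -0.53 to 1.03 for Rplp0. MSA_ConA against ConA ran from -1.48 to 0.78 for Rps9, -0.98 to 0.51 for Rps3, -2.29 to 1.63 for Rpl13a, -1.54 to 1.86 for Rpl18, -0.072 to 1.03 for Rps27l and -0.15 to 3.99 for Rpl3l. MSA_ConA against Control ran from -1.56 to 0.069 for Rps15, -2.11 to 0.18 for Rpl28 and -0.48 to 1.18 for Rps14. The cause of these changes was not tested. Rpl24, Rpl39l and Rpl10l did not pass the filter on low counts and were not tested with it.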
